A study of Homo sapiens with 6 samples.

Results

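The proteasome and immunoproteasome genes described here are 39 genes that were taken by symbol from a fixed list of 20S, 19S, immunoproteasome and activator components, out of 61552 genes in the deposited tables. They are the 7 alpha and 7 beta subunits of the constitutive 20S core, the 3 immunoproteasome beta subunits, the 6 ATPases and 11 other subunits of the 19S cap, 4 activators and the assembly chaperone POMP. All 39 passed the filter on low counts, so each had a test. RNA was sequenced from NCI-H520, an established human cell line from a squamous carcinoma of the lung, wild type by its label and kept in RPMI-1640 with fetal bovine serum. The 3 cisplatin libraries came from cells given 2 µM cisplatin, a DNA-crosslinking platinum compound, for 48 h, and the 3 PBS libraries from cells given phosphate-buffered saline for 48 h. It is 1 cell line at 1 dose and 1 time, and nothing in the labels shows that replicates were grown separately, so p-values reflect variation among these libraries that may be only technical.

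The proteasome is the main protease of the cytosol and nucleus and takes apart proteins that carry ubiquitin chains. Its 20S core is a barrel of stacked rings, in which the outer alpha rings form the gate and the inner beta rings hold the active sites. The 19S cap binds ubiquitin, unfolds the substrate with a ring of ATPases and threads it into the core. Interferon-gamma is known to bring in the immunoproteasome subunits PSMB8, PSMB9 and PSMB10, which replace the catalytic subunits PSMB5, PSMB6 and PSMB7 and shift the peptides made towards those that MHC class I can bind. PSME1 and PSME2 form an interferon-inducible cap that opens the core without ubiquitin.

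Libraries held 9925328, 11165041 and 16724285 expected counts under cisplatin, against 9121180, 15589897 and 14066008 under PBS. The first principal component took 58.9% of the variance and separated the groups. Of 9 squamous markers, TP63, KRT14, DSG3 and PKP1 were at or near 0 in both groups, KRT5, KRT6A and DSC3 were low and not called, SOX2 stood at 152 TPM under cisplatin and 156 TPM under PBS, and TRIM29 was higher at 20.4 CPM under cisplatin and 8.39 CPM under PBS. Of 4 epithelial markers KRT8, KRT18 and CDH1 were higher and EPCAM was not called, their sum running from 2210 to 2330 CPM under cisplatin and from 1860 to 1950 CPM under PBS. Of 3 adenocarcinoma markers NKX2-1 was higher, at 7.28 CPM under cisplatin and 4.07 CPM under PBS, and NAPSA and SFTPB were near 0. TPM divides counts by transcript length, scales each library to 1 fixed total and can be compared between genes. CPM scales counts by library size, adjusted by the TMM method and not by length, and is used below for 1 gene between groups. Of the leukocyte markers, PTPRC and CD3E were at 0 in every library, CD68 was near 0 and LYZ was higher under cisplatin, so that the summed leukocyte markers ran from 3.30 to 4.09 CPM under cisplatin and from 0.67 to 1.25 CPM under PBS. The summed fibroblast markers, nearly all COL1A1, ran from 23.0 to 24.5 CPM under cisplatin and from 10.4 to 15.3 CPM under PBS. The part of these markers in the proteasome values was not tested. Since a library pools many cells, a gene that is expressed by more cells and a gene that is expressed more per cell cannot be told apart.

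The core and its companions were higher after cisplatin and the cap for the most part was not. Of the 39 genes, 16 rose and 2 fell in edgeR's quasi-likelihood test at a Benjamini-Hochberg adjusted p under 0.05, and 21 were not called, where 38.2% of all 15063 tested genes were called. That is 41.0% higher and 5.13% lower, beside 18.9% higher and 19.3% lower among all of these. By particle, 10 of the 14 constitutive core genes rose and none fell, 2 of the 3 immunoproteasome genes rose, and among the 17 cap genes 1 rose and 1 fell. Of the activators 2 rose and 1 fell, and POMP rose. In CPM, all cisplatin libraries lay above all PBS libraries for 17 of the 39 genes and below them for 3, where the shares over all tested genes were 25.2% and 24.5%.

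**Figure D1:**
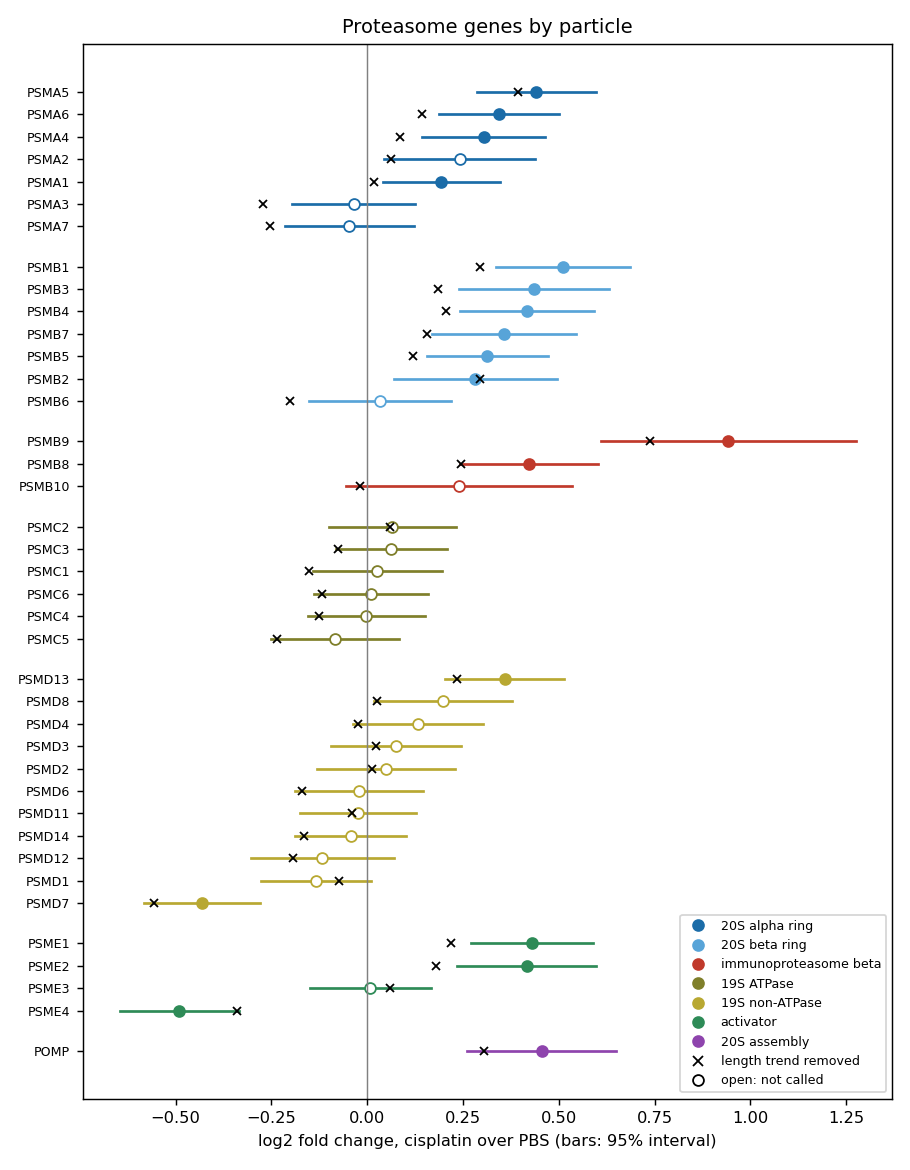
Log2 fold change of cisplatin over PBS for the 39 genes, grouped by particle, with 95% intervals from the quasi-likelihood standard error; filled points passed the adjusted p of 0.05, open points did not, and crosses give the value after a transcript length trend was removed. The core, immunoproteasome, PSME1, PSME2 and POMP points lie mostly right of 0, the 6 ATPases sit at 0, and PSMD7 and PSME4 are the 2 filled points left of 0.

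Transcript length moves with this result. Over all tested genes the median log2 fold change was 0.23 for transcripts of 500 to 1000 bases and -0.29 for those above 5000 bases. Core genes are short, with a median of 1007 bases in the alpha ring and 922 bases in the beta ring, against 1472 bases for the ATPases and 1566 bases for the other cap genes. Among 4611 genes of like length (833 to 2521 bases) and at least the members' lowest abundance, 28% were higher and 11.5% lower, with a median log2 fold change of 0.09 beside 0.13 for the 39 genes; this reference set was drawn up with the values in view. When a smooth trend on transcript length was removed from each library, 10 of the 39 were higher and 7 lower (17.1% and 16.9% of all tested genes). In that fit the alpha ring had 1 higher and 2 lower, the beta ring 3 higher and 1 lower, and the cap 1 higher and 3 lower. PSMB8, PSMB9, PSME1, PSME2 and POMP were still called there with smaller log2 fold changes of 0.25, 0.74, 0.22, 0.18 and 0.31. PSMD7 and PSME4 were still called lower, at -0.56 and -0.34. On the TPM scale, limma called 10 higher and 1 lower (8.02% and 11% of all tested genes, or 7.87% and 10.8% with a smaller pseudocount). With deposited effective lengths as an offset 14 were higher and 1 lower (13.3% and 13.2%). What sets the length trend was not tested.

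**Figure D2:**
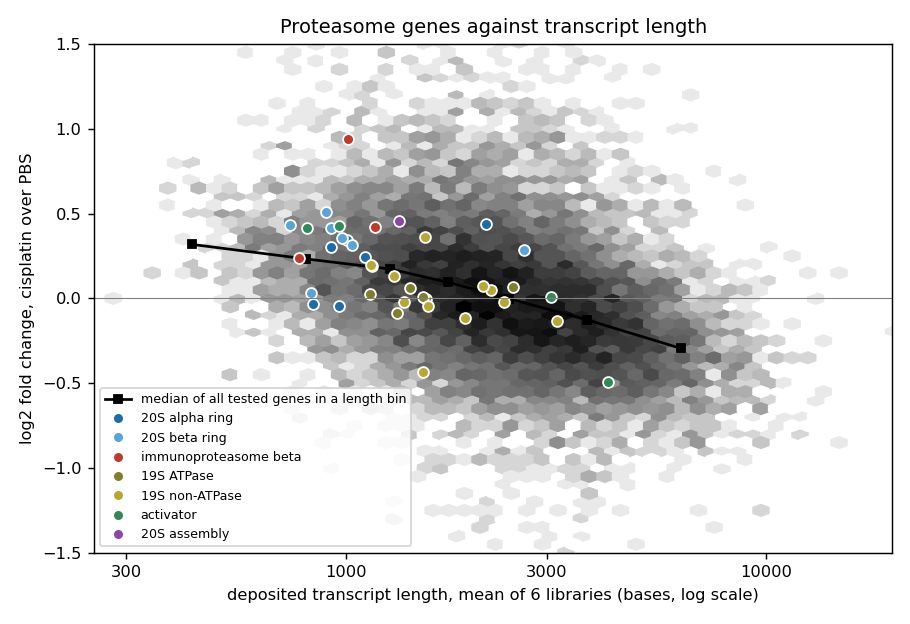
Log2 fold change of cisplatin over PBS against the deposited transcript length (mean of 6 libraries, log axis); grey shows the density of all tested genes within the plotted range, black squares the median in each length bin, and coloured points the 39 proteasome genes. The core genes cluster at the short end, where the median of all genes lies above 0, and PSMB9 stands above every other member.

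The immunoproteasome subunits gave the largest single change. PSMB9 (ENSG00000240065; chromosome 6, 32844136 to 32859585 in GRCh38), which replaces the caspase-like subunit PSMB6, had 9.96, 11.0 and 12.5 CPM in the cisplatin libraries and 6.81, 5.79 and 5.16 CPM in the PBS libraries. Every cisplatin library was above every PBS library. Its log2 fold change was 0.94 ± 0.15 (SE; edgeR quasi-likelihood, Benjamini-Hochberg adjusted p = 0.00061), a fold of 1.92 with a 95% interval of 1.53 to 2.42, and the highest of the 39. It is also the least abundant member, at 17.2 ± 1.61 TPM under cisplatin and 9.45 ± 0.89 TPM under PBS (SD, n = 3), and rested on 100 to 208 counts per cisplatin library and 61 to 88 per PBS library. PSMB9 shares 5.7% of its exonic bases with PSMB8-AS1 on the same strand and 4.5% with PSMB8 on the other. PSMB8 had 43.0 CPM under cisplatin and 32.2 CPM under PBS, and reads from the shared bases cannot be told apart.

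PSMB8 (ENSG00000204264; chromosome 6, 32840717 to 32844703), the immunoproteasome form of the chymotrypsin-like subunit, had 41.6, 45.1 and 42.4 CPM under cisplatin, against 33.3, 32.0 and 31.2 CPM under PBS. The groups did not overlap, and the log2 fold change was 0.42 ± 0.08 (SE; edgeR's adjusted p = 0.0020). PSMB8 shares 20.6% of its exonic bases with the antisense gene PSMB8-AS1 and 4.6% with PSMB9 on the other strand. Whether strand was used in counting is not given in the sources used here, so those reads cannot be told apart, although PSMB8-AS1 itself had 1.45 CPM under cisplatin and 0.987 CPM under PBS.

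PSMB10 (ENSG00000205220; chromosome 16, 67934502 to 67937087), which takes the place of the trypsin-like PSMB7, was not called. It had 19.8, 17.9 and 25.8 CPM under cisplatin and 18.6, 19.1 and 16.6 CPM under PBS, so the groups overlapped, with the third cisplatin library well above the rest. The log2 fold change was 0.24 ± 0.14 (SE; edgeR's adjusted p = 0.183), with an interval of the fold of 0.963 to 1.45. It was 0.06 without cisplatin replicate 3, 0.36 without cisplatin replicate 2 and -0.02 with the length trend removed, none of them called. In TPM its values leaned the other way, at 42.3, 36.3 and 53.8 under cisplatin and 53.7, 53.0 and 53.6 under PBS, again with overlap. The deposited transcript length, an average weighted by isoform abundance, was 829 ± 21.2 bases under cisplatin and 713 ± 11.9 bases under PBS, and 34.8% of its exonic bases belong also to an unnamed gene on the same strand.

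Set against the subunit that each one replaces, the immunoproteasome genes remained minor. PSMB9 stood at 6.47%, 7.16% and 7.72% of PSMB6 TPM in the cisplatin libraries and at 3.88%, 3.63% and 3.59% in the PBS libraries. PSMB8 was 22.3% ± 0.572 of PSMB5 under cisplatin and 20.3% ± 0.781 under PBS (SD, n = 3), also without overlap. PSMB10 was 18.0% ± 4.22 of PSMB7 under cisplatin and 26.0% ± 0.906 under PBS, lower in every cisplatin library. The 3 pairs thus did not move one way, and on counts the PSMB10 to PSMB7 ratio overlapped between groups. The summed immunoproteasome TPM was 114 ± 7.54 under cisplatin and 105 ± 3.35 under PBS.

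**Figure D3:**
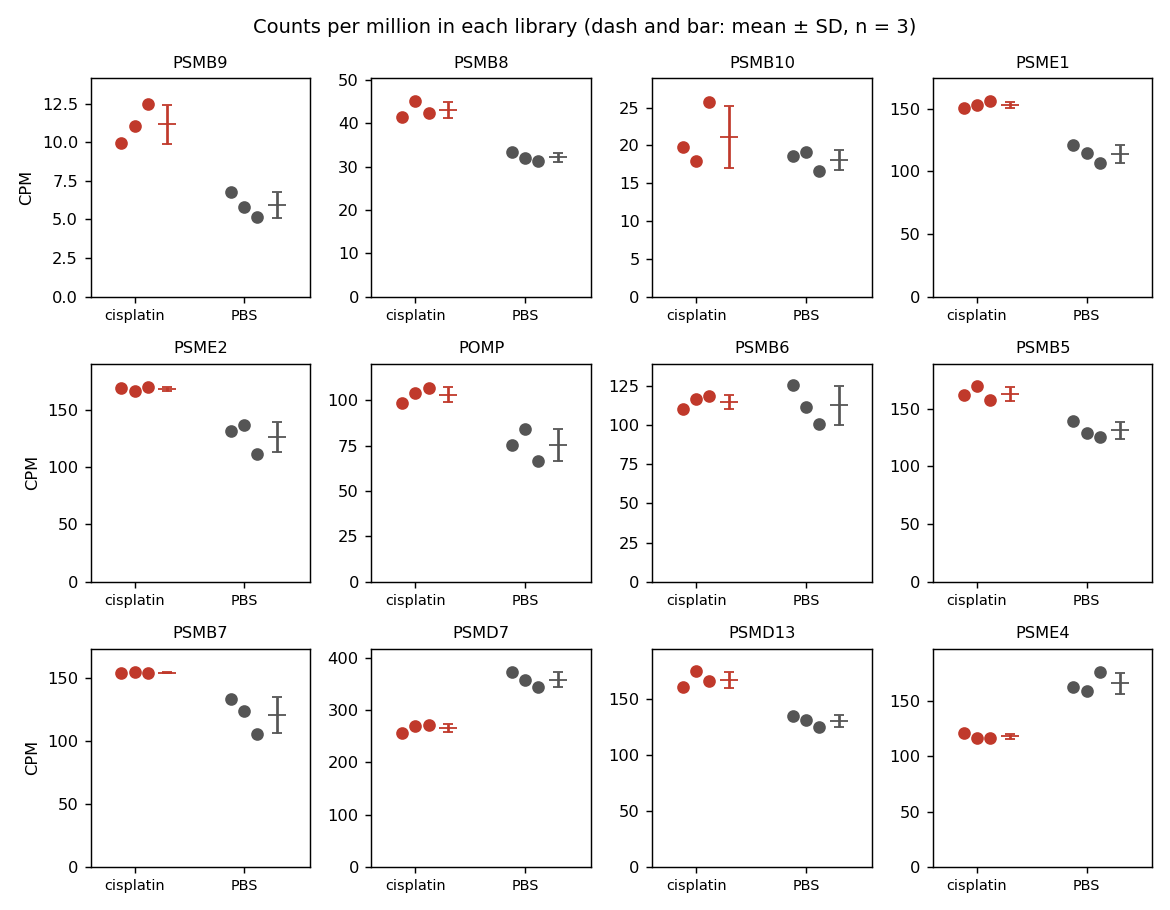
CPM in each of the 3 cisplatin libraries (red, left) and 3 PBS libraries (grey, right) for 12 proteasome genes, each with its mean ± SD (n = 3). PSMB9, PSMB8, PSME1, PSME2, POMP, PSMB5, PSMB7 and PSMD13 lie higher in every cisplatin library, PSMD7 and PSME4 lower, and PSMB10 and PSMB6 overlap.

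The starts of these genes are shown because interferon response elements are known to control several of them. Each is a RefSeq window (GRCh38.p14) of 300 bases, 250 before the start and 50 after it, written in the direction of the gene. Apart from PSMB9, windows were chosen for holding the letters marked below. PSMB8 (chr6:32844630-32844929) and TAP1 (chr6:32852712-32853011) each have another window, without these letters, that is not shown. Capitals mark the ISRE-like letters GAAANNGAAA on either strand, which 3.57% of all 35116 windows hold. TAP1, a peptide transporter gene, is included because it lies head to head with PSMB9 and their windows share 13 bases.
PSMB9 (chr6:32853942-32854241, plus strand): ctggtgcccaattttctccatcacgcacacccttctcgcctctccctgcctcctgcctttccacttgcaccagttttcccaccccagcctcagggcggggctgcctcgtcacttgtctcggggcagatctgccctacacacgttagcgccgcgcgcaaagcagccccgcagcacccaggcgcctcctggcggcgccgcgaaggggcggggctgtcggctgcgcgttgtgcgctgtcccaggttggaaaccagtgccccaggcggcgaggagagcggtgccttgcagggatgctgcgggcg
TAP1 (chr6:32853655-32853954, minus strand): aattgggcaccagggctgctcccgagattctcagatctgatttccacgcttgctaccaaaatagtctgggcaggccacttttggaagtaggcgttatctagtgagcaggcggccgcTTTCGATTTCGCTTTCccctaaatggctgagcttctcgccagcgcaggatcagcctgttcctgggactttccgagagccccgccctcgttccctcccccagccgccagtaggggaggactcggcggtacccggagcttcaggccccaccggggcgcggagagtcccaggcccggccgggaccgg
PSMB8 (chr6:32843998-32844297, minus strand): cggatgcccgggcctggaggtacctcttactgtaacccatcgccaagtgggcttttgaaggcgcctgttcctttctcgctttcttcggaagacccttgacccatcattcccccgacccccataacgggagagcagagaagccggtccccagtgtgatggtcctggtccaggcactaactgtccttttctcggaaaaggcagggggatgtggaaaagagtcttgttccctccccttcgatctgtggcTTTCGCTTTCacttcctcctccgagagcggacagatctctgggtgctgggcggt
PSMB10 (chr16:67936801-67937100, minus strand): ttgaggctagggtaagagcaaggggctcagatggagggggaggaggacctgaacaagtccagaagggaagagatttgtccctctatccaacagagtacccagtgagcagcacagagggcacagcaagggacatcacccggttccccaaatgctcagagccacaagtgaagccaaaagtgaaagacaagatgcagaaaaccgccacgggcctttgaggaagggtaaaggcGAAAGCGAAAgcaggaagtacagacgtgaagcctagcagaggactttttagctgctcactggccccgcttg
PSME1 (chr14:24135944-24136243, plus strand): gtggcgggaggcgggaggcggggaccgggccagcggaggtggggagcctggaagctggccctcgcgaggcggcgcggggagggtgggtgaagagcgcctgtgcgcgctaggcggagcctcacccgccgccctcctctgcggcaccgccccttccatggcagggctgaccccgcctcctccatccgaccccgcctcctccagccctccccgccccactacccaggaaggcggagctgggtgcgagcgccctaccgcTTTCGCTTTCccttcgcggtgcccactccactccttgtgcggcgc
PSME2 (chr14:24146561-24146860, minus strand): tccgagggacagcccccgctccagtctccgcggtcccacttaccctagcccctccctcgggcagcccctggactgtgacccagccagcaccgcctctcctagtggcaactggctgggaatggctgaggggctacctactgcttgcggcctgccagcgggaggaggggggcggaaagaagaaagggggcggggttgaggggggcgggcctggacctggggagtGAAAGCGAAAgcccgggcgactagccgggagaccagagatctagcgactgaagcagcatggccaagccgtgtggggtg
The letters stood in a window of PSMB8, PSMB10, PSME1, PSME2 and the core genes PSMA4 and PSMB4, while other windows of PSMB8 and PSMA4 had none. That made 6 members with the letters in any window, of the 34 that have a window. By gene, 4.38% of all 27305 genes with a window hold them. The letters stand at a pair of overlapping places in the TAP1 window shown and are not in that of PSMB9. The TAP1 matches lie between the starts of TAP1 and PSMB9 on which these windows are set, upstream of the PSMB9 window. TAP1 had 43.6 ± 2.51 CPM under cisplatin and 41.4 ± 3.19 CPM under PBS and was not called (log2 fold change 0.08, edgeR adjusted p = 0.518). The GAS-like letters TTCNNNGAA occurred in 7 of the 34 members (9.38% of all genes), the antioxidant response core TGACNNNGC in 11 (16.1%) and CCAAT in 17 (39.7%). By window these shares were 7.66%, 13.3% and 34.6%. A match is a string of letters, and binding was not measured.

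Among the activators, PSME1 and PSME2, the partners of the interferon-inducible cap, both rose. PSME1 (chromosome 14, 24136158 to 24138967) had 151, 153 and 156 CPM under cisplatin, against 121, 114 and 106 CPM under PBS. PSME2 (chromosome 14, 24143362 to 24147570) had 169, 167 and 170.2 CPM under cisplatin, against 131, 137 and 111 CPM under PBS. Neither gene's groups overlapped, and the log2 fold changes were 0.43 ± 0.07 for PSME1 and 0.42 ± 0.08 for PSME2 (SE; edgeR's adjusted p = 0.00085 and adjusted p = 0.0022). The PSME1 to PSME2 count ratio ran from 89.3% to 91.8% under cisplatin and from 83.7% to 95.7% under PBS. Reads of PSME2 may be split with its 6 pseudogenes, which held 1.26% to 2.14% of the counts of gene and pseudogenes together.

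PSME3, a nuclear relative of that pair, had 239 ± 13.7 CPM under cisplatin and 238 ± 9.81 CPM under PBS, and was not called (log2 fold change 0.01, edgeR adjusted p = 0.939, interval of the fold 0.902 to 1.12). PSME4 (chromosome 2, 53864067 to 53970840) encodes a large nuclear activator tied to histone breakdown. It had 121, 117 and 117 CPM under cisplatin and 162, 159 and 177 CPM under PBS, lower in every cisplatin library. Its log2 fold change of -0.49 ± 0.07 (SE; edgeR's adjusted p = 0.00032) was the lowest of the 39.

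The fall of PSME4 depends on how transcript length is handled. Its deposited length was 3588 ± 97.7 bases under cisplatin and 4817 ± 110 bases under PBS (SD, n = 3), a difference of -25.5% without overlap. In TPM, which divides by that length, it had 37.6, 37.1 and 37.2 under cisplatin and 38.9, 36.0 and 46.7 under PBS, and the groups overlapped. With the deposited effective lengths as an offset the log2 fold change was -0.03 (edgeR adjusted p = 0.824), and limma on log2(TPM + 1) gave -0.11 (adjusted p = 0.519). The mean length also differed without overlap for 7 other members, by at most 16.2%, which makes 8 of 39 where 15.8% of all tested genes did so; next to PSMB10 the widest were PSMD12, at 2002 ± 119 bases under cisplatin and 1836 ± 62.1 bases under PBS, and PSMD2, at 2124 ± 43.6 bases under cisplatin and 2297 ± 60.7 bases under PBS. Which isoforms lie behind these averages cannot be read from gene tables.

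**Figure D4:**
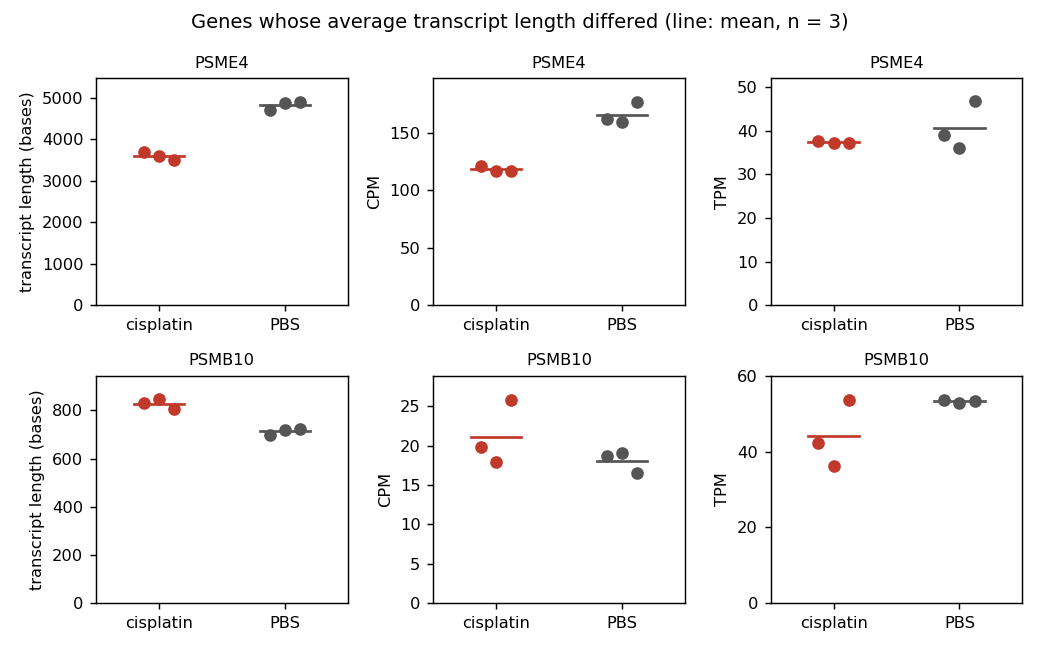
Deposited transcript length (bases), CPM and TPM of PSME4 (top) and PSMB10 (bottom) in the 3 cisplatin libraries (red, left) and 3 PBS libraries (grey, right), with group means as lines. PSME4 is shorter and lower in CPM under cisplatin but overlaps in TPM, and PSMB10 is longer under cisplatin and overlaps in both CPM and TPM.

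POMP (ENSG00000132963; chromosome 13, 28659104 to 28678925), the chaperone that builds new core particles and is used up in doing so, had 98.8, 104 and 107 CPM under cisplatin, against 75.4, 84.0 and 66.7 CPM under PBS. The groups did not overlap, with a log2 fold change of 0.46 ± 0.09 (SE; edgeR's adjusted p = 0.0020). In TPM it had 106 ± 2.21 under cisplatin and 82.1 ± 4.22 under PBS, and its transcript length was 1338 bases in both.

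Of the constitutive catalytic subunits, 2 rose and 1 did not. PSMB5, the chymotrypsin-like subunit and the target of bortezomib, had 162, 169.7 and 158 CPM under cisplatin and 139.6, 129 and 125 CPM under PBS (log2 fold change 0.31 ± 0.07 SE, edgeR adjusted p = 0.0053). PSMB7, the trypsin-like subunit, had 154, 155 and 155 CPM under cisplatin and 133, 124 and 106 CPM under PBS (0.36 ± 0.09, edgeR adjusted p = 0.0065). Neither overlapped between groups. PSMB6, the caspase-like subunit, had 109.9, 116 and 118 CPM under cisplatin and 125, 111 and 101 CPM under PBS, so the cisplatin values fell inside the PBS range. Its log2 fold change was 0.03 ± 0.09 (edgeR adjusted p = 0.788), and with the length trend removed it was -0.20 (adjusted p = 0.036). PSMB5 and PSMB7 were not called in that fit (adjusted p = 0.21 and adjusted p = 0.095), and PSMB5 was not called on TPM.

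The 4 other beta subunits, which have no active site, all rose. PSMB1 (chromosome 6, 170535117 to 170553341) led them with 369.7, 385 and 367 CPM under cisplatin, against 282, 271 and 234 CPM under PBS, a log2 fold change of 0.51 ± 0.08 (SE; edgeR's adjusted p = 0.00051) without overlap. PSMB4 had 460.4 ± 27.6 CPM under cisplatin and 345 ± 27.5 CPM under PBS, and PSMB3 had 231 ± 6.63 CPM under cisplatin and 171 ± 21.5 CPM under PBS, with log2 fold changes of 0.42 and 0.44 (edgeR adjusted p = 0.0018 and adjusted p = 0.0027). PSMB2 overlapped between groups, at 116, 142 and 141 CPM under cisplatin and 122, 109 and 99.1 CPM under PBS. Its call (0.28 ± 0.10, edgeR adjusted p = 0.0376) was lost when cisplatin replicate 2 or 3 or PBS replicate 2 or 3 was left out, with adjusted p = 0.115, 0.122, 0.0634 and 0.124. With the length trend removed PSMB1 and PSMB4 were called at 0.29 and 0.21, and PSMB3 was not, at 0.19 (adjusted p = 0.0568).

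In the alpha ring, which gates the core, 4 of 7 rose. PSMA5 (chromosome 1, 109399031 to 109426427) had 148, 151 and 143 CPM under cisplatin, against 112, 110.4 and 102 CPM under PBS, with a log2 fold change of 0.44 ± 0.07 (SE; edgeR's adjusted p = 0.00060), and it was the alpha gene that stayed called in every alternative run, at 0.39 with the length trend removed. PSMA6 had 153 ± 1.25 CPM under cisplatin and 120.2 ± 7.03 CPM under PBS (0.34, edgeR adjusted p = 0.0029), and PSMA4 had 312 ± 16.5 CPM under cisplatin and 253 ± 12.7 CPM under PBS (0.30, edgeR adjusted p = 0.0066). Both were above the PBS range in every cisplatin library, and neither was called on TPM or with the length trend removed (edgeR adjusted p = 0.0896 for PSMA6 and edgeR adjusted p = 0.286 for PSMA4 with the trend removed).

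PSMA1 was called at 133 ± 4.90 CPM under cisplatin and 116 ± 3.24 CPM under PBS (0.19 ± 0.07 SE, edgeR adjusted p = 0.0444). That call was lost without cisplatin replicate 1, 2 or 3 (adjusted p = 0.175, 0.0758 and 0.0827) and without PBS replicate 1 or 3 (adjusted p = 0.0726 and adjusted p = 0.106). It was also lost in DESeq2 (adjusted p = 0.0619), with no low-count filter (0.0932), on TPM (0.401), with effective lengths (0.0817), and with the length trend removed, where the log2 fold change was 0.02 (adjusted p = 0.87). PSMA2 was just past the threshold at 195 ± 15.2 CPM under cisplatin and 165 ± 17.7 CPM under PBS (0.24, edgeR adjusted p = 0.0527). It was called in 7 of the 18 alternatives and not in the other 11. In edgeR these were without cisplatin replicate 2 (adjusted p = 0.0356) or PBS replicate 2 (0.0214), and with upper quartile or no scaling (0.0372 and 0.0322). The others were no low-count filter (edgeR adjusted p = 0.0204), a filter of 50 counts (edgeR adjusted p = 0.0424) and DESeq2 (adjusted p = 0.0489). PSMA3 and PSMA7 overlapped between groups with log2 fold changes of -0.04 and -0.05. With the length trend removed these were -0.27 and -0.25, both called lower (edgeR adjusted p = 0.0232 and adjusted p = 0.0143).

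None of the 6 cap ATPases, the motor that unfolds substrates, was called. PSMC1 to PSMC6 had log2 fold changes of -0.08 to 0.07, the lowest for PSMC5 and the highest for PSMC2, and the 95% intervals of their folds lay between 0.840 and 1.17. The count was also 0 in DESeq2 and in limma-voom, and 0 at an unadjusted p under 0.05 in edgeR. Only PSMC3 had non-overlapping groups, at 287 ± 4.53 CPM under cisplatin and 274 ± 6.54 CPM under PBS. Reads of PSMC1 are less certain, since its 13 pseudogenes held 3.76% to 6.80% of the counts of gene and pseudogenes together. Also, 75.8% of its exonic bases overlap the antisense gene NRDE2, which had 21.7 CPM under cisplatin and 27.1 CPM under PBS. PSMC5 was called lower with the length trend removed (-0.24, adjusted p = 0.0166).

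Among the 11 other cap subunits PSMD7 fell and PSMD13 rose. PSMD7 (ENSG00000103035; chromosome 16, 74296775 to 74306288), the lid protein that pairs with the deubiquitinase PSMD14, had 256, 269.8 and 270.4 CPM under cisplatin, against 373, 357 and 344 CPM under PBS. The groups were far apart, with a log2 fold change of -0.43 ± 0.07 (SE; edgeR's adjusted p = 0.00059), and in TPM it had 219 ± 6.14 under cisplatin and 346 ± 46.3 under PBS. It shares 30.7% of its exonic bases with an unnamed antisense gene that had 11.4 CPM under cisplatin and 9.95 CPM under PBS. PSMD7 was the 1 lower member that stayed called in all 18 alternatives.

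PSMD13 (chromosome 11, 236546 to 252984), a structural lid protein, had 160.1, 174 and 166 CPM under cisplatin, against 135, 131 and 124 CPM under PBS. Its log2 fold change was 0.36 ± 0.07 (SE; edgeR's adjusted p = 0.0022) without overlap. It was 0.23 with the length trend removed, still called, and limma on log2(TPM + 1) did not call it. Its partner subunits in the lid, PSMD3, PSMD6, PSMD8, PSMD11, PSMD12 and PSMD14, were not called. PSMD8 had 252 ± 8.63 CPM under cisplatin and 219 ± 23.0 CPM under PBS (0.20, edgeR adjusted p = 0.076), and was called when PBS replicate 1 was left out (adjusted p = 0.0283). The ubiquitin receptor PSMD4 had a log2 fold change of 0.13, and the scaffold PSMD1 one of -0.13, at 215 ± 2.88 CPM under cisplatin and 236 ± 6.41 CPM under PBS with no overlap (edgeR adjusted p = 0.203 and adjusted p = 0.133).

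Levels per length set PSMD2 apart from the rest of the cap. This scaffold, which docks ubiquitin receptors, lies on chromosome 3 at 184298709 to 184309054 and had 842, 869 and 726 TPM under cisplatin and 747, 677 and 863 TPM under PBS. That was 5.92 ± 0.325 times the median of the other cap subunits under cisplatin and 5.21 ± 0.19 times under PBS (SD, n = 3), and it was the 1 cap subunit of 17 above 500 TPM under PBS. Its own log2 fold change on counts was 0.05 (edgeR adjusted p = 0.663). The deposited length of PSMD2, by which TPM divides, was 2124 ± 43.6 bases under cisplatin and 2297 ± 60.7 bases under PBS. The part of length in the difference between these ratios was not tested. SOX2 is on the same chromosome arm, and gene copy number was not measured.

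Within each particle, subunits that assemble in equal numbers had unequal mRNA levels. In the beta ring the means ran from 59.1 TPM for PSMB2 to 807 TPM for PSMB4 under cisplatin, and from 52.3 TPM to 647 TPM for the same genes under PBS. In the alpha ring they ran from 83.6 TPM for PSMA5 to 544 TPM for PSMA4 under cisplatin and from 65.3 TPM to 480 TPM under PBS. The subunits that rose are found at both ends of these ranges. PSMB2, PSMA5 and PSMC2, the lowest of their groups in TPM under cisplatin, have the longest transcripts of the beta ring, the alpha ring and the ATPases. The same held for PSME4 among the activators. It did not hold for the other cap subunits, where PSMD12 (1919 bases) was lowest and PSMD1 (3182 bases) longest. Nor did it hold for the immunoproteasome, where PSMB9 (1012 bases) was lowest and PSMB8 (1171 bases) longest.

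**Figure D5:**
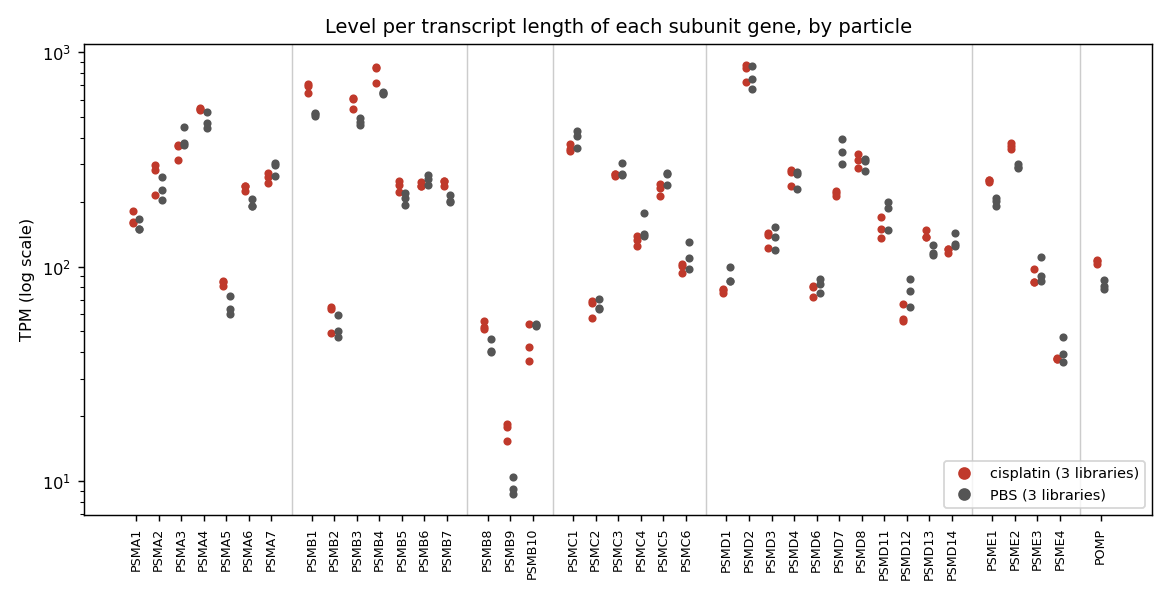
TPM (log axis) of each of the 39 genes in the 3 cisplatin libraries (red, left of each pair) and 3 PBS libraries (grey, right), with vertical lines between particles. PSMD2 is far above the other cap genes, PSMB9 is the lowest member, and levels within a ring differ by more than they differ between groups.

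Summed over the particle, the constitutive core had 4880, 4872 and 4550 TPM under cisplatin, against 4164, 4065 and 4284 TPM under PBS, higher in every cisplatin library. Most of the difference lay in the beta ring, at 2863 ± 166 TPM under cisplatin and 2356 ± 58.1 TPM under PBS (SD, n = 3). The alpha ring overlapped, at 1905 ± 49.5 TPM under cisplatin and 1815 ± 99.2 TPM under PBS. The cap had 3614, 3668 and 3297 TPM under cisplatin and 3683, 3450 and 4129 TPM under PBS, which overlapped. Its ATPases alone were lower in every cisplatin library on this scale, at 1155 ± 48.0 TPM under cisplatin and 1272 ± 94.8 TPM under PBS. On counts no ATPase was called, and their median log2 fold change was 0.02. Over all tested genes, log2 fold changes by limma on log2(TPM + 1) differed from those on counts by a median of -0.09.

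Per subunit, the mean cap level was 0.610, 0.620 and 0.597 of the mean core level in the cisplatin libraries and 0.728, 0.699 and 0.794 of it in the PBS libraries. The groups did not overlap, and the ratio of the group means was 0.823 and stayed between 0.800 and 0.853 when any 1 library was left out. These sums weigh abundant genes most and cover mRNA only. Protein and particle numbers were not measured. The core genes are also shorter, with medians of 1007 and 922 bases in their rings, against 1472 and 1566 bases in the cap. Over all tested genes the median log2 fold change on counts was 0.23 for 500 to 1000 bases and 0.09 for 1500 to 2000 bases. The part of transcript length in the cap to core ratio was not tested.

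Other parts of the pathway were counted from lists chosen with earlier results in view. Of 11 tested assembly factors and other subunits, 4 rose and none fell in edgeR's test, beside the 18.9% and 19.3% of all genes. PAAF1, a chaperone of the cap ATPases, had 41.6 ± 2.82 CPM under cisplatin and 28.8 ± 1.36 CPM under PBS (0.53, edgeR adjusted p = 0.00080), and PSMD9, another cap chaperone, had 73.9 ± 1.88 CPM under cisplatin and 57.2 ± 5.06 CPM under PBS (0.37, edgeR adjusted p = 0.0041). The remaining 2 were PSMG2, a chaperone of alpha ring assembly, and SEM1, a small lid subunit. PSMD9 was not called on TPM or with the length trend removed, and the germ-cell subunit PSMA8 was listed at 0 in every library.

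Of 11 genes for the transcriptional control of subunits, none rose and 3 fell, where 18.9% of all tested genes rose and 19.3% fell. The list's median transcript length was 2379 bases, and among all genes of 2000 to 3000 bases 18.5% rose and 16.9% fell. Of the genes that fell, DDI2 averaged 9739 bases, NFYA 4513 bases and NFYB 2272 bases. Among all genes of 3000 to 5000 bases 26.6% fell, and above 5000 bases 48.1% fell. DDI2, the protease that activates the factor NFE2L1, had 101, 97.7 and 114 CPM under cisplatin, against 169.6, 179 and 192 CPM under PBS, a log2 fold change of -0.79 ± 0.08 (SE; edgeR's adjusted p = 3.5e-05) with the groups far apart. NFYA and NFYB, subunits of the factor that binds CCAAT, were lower at 18.7 ± 1.14 CPM under cisplatin and 29.8 ± 1.74 CPM under PBS for NFYA, and 32.0 ± 2.39 CPM under cisplatin and 39.8 ± 3.48 CPM under PBS for NFYB (edgeR adjusted p = 0.00030 and adjusted p = 0.0193). NFE2L1, which drives subunit genes when proteasome activity is short, had 159.9 ± 7.24 CPM under cisplatin and 185 ± 20.5 CPM under PBS and was not called (edgeR adjusted p = 0.0759). DDI2 and NFYA stayed called in all 18 alternatives, with DDI2 at -0.40 and NFYA at -0.50 when the length trend was removed.

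Of 14 interferon and class I genes, 3 rose and 1 fell, close for the rises to the 18.9% of all tested genes that rose and below the 19.3% that fell. IRF1, a factor that binds ISRE sequences, had 27.6, 27.8 and 29.1 CPM under cisplatin, against 19.1, 17.2 and 18.4 CPM under PBS, a log2 fold change of 0.63 ± 0.09 (SE; edgeR's adjusted p = 0.00036) without overlap. The receptor chain IFNGR2 had 51.7 ± 1.69 CPM under cisplatin and 38.9 ± 0.599 CPM under PBS (0.41, edgeR adjusted p = 0.0016), and STAT2 also rose. Limma on log2(TPM + 1) called neither IRF1 nor IFNGR2. TAP2, the partner of TAP1 in the peptide transporter, fell to 30.7 ± 1.17 CPM under cisplatin, against 40.1 ± 4.50 CPM under PBS (-0.38, edgeR adjusted p = 0.0093), a call lost on TPM and with effective lengths as an offset. Of the 4 neighbours on chromosome 6, then, PSMB8 and PSMB9 rose, TAP1 was not called and TAP2 fell.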

How the data were processed

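Total RNA from NCI-H520 cells was extracted with TRIzol and made into libraries with an ABclonal kit, per the labels' protocols. Reads were aligned with STAR 2.7.9 and GRCh38, per the submitters' processing notes; the quantifier's version, and which annotation or strand setting it used, is not given in the sources used here. The authors deposited per gene an expected count (estimated, not normalized), TPM, and transcript and effective lengths in bases, per the file headers; deposited FPKM values were not used.

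Rounded expected counts went into edgeR 4.0.16 (R 4.3.3) after filterByExpr (count minimum 10, total 15) and TMM scaling, with the quasi-likelihood test of 3 cisplatin against 3 PBS libraries over 15063 genes, Benjamini-Hochberg adjustment and calls under 0.05. Standard errors come from the F statistic. Alternatives were limma 3.58.1 (voom, and log2 TPM with a pseudocount of 1 or 0.1), DESeq2 1.42.0, other scalings and filters, each library left out, a replicate block, a lowess trend on length (span 0.3) and effective length offsets. Lengths and TPM are averages over isoforms, and the pseudocount understates the fold of low genes.

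The members and gene lists were chosen with earlier results of these data known. Described in full are every immunoproteasome subunit, activator, POMP and catalytic subunit, called members of other particles, and up to 2 called genes per direction of each partner list; others named were chosen after their values were seen. Some genes that this rule takes are not reported here. Symbols matched 61399 of 61552 identifiers, and positions and overlaps are from GENCODE 29 (GRCh38), which may differ from the files' annotation. On simulated counts for the 15063 genes of this comparison the test recovered 64.5% of genes changed 1.5-fold and 85.7% of those changed 2-fold, with 4.31% false calls. No 2 libraries were identical (chi-square per degree of freedom within groups 2.93 to 20.9). Intervals include the spread between libraries.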

Additional observations from a re-analysis of the deposited data

How the results depend on the processing

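Over 18 alternatives, 654 of 702 member values kept their side of the threshold, 35 lost a call and 12 gained one, and PSMB6 turned to -0.20, called lower (edgeR adjusted p = 0.036), with the length trend removed. Signs turned in 46 values of 15 members, none of them called in the main comparison. Of 18 called members 9 were called in all alternatives: PSMA5, PSMB1, PSMB4, PSMB8, PSMB9, PSME1, PSME2 and POMP higher, PSMD7 lower. Members called went to 10 higher and 1 lower by limma on log2(TPM + 1) and on log2(TPM + 0.1), where genes called were 1208 and 1186 higher and 1653 and 1629 lower. Members called were 10 higher and 7 lower with the length trend removed, and 14 higher and 1 lower with effective lengths. Median log2 fold changes by limma at the larger and smaller pseudocount were 0.33 and 0.34 for the immunoproteasome, -0.16 and -0.16 for the ATPases and 0.11 and 0.11 for activators. With the length trend removed they were 0.062 for the alpha ring, 0.19 for the beta ring, 0.25 for the immunoproteasome, -0.12 for the ATPases, 0.12 for activators and 0.31 for POMP; with effective lengths the ATPases were at -0.078. The cause of these shifts was not tested. Leaving out 1 library gave 2137 to 2718 genes higher and 2068 to 2595 lower, 14 to 16 members higher and 2 lower, and an alpha ring median of 0.17 to 0.32. Whether replicate numbers pair the samples could not be settled from so few libraries. Deviations of same-numbered libraries correlated at 0.07, 0.12 and -0.08, and those of differently numbered libraries at -0.19 to 0.13. The replicate block gave 2853 genes higher and 2966 lower and 15 members higher and 2 lower, without PSMA1 (edgeR adjusted p = 0.0563). With 3 libraries per group, 64.5% of simulated 1.5-fold changes were recovered, and differences under 1.5-fold, such as most of those given here, were not simulated.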

Other observations

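Genes that supply ubiquitin and genes that bring substrates to the proteasome were counted in the same test. Of 6 ubiquitin supply and activation genes 3 rose and none fell in edgeR's test, where 18.9% of all tested genes rose and 19.3% fell. UBB, which encodes a string of ubiquitin units, had 1091, 1095 and 999 CPM under cisplatin, against 812, 729 and 693 CPM under PBS (0.51 ± 0.08 SE, edgeR adjusted p = 0.00051). RPS27A, a ubiquitin and ribosomal protein fusion, had 789 ± 37.8 CPM under cisplatin and 577 ± 79.8 CPM under PBS (0.45, edgeR adjusted p = 0.0033). Both genes had higher values in every cisplatin library and stayed called in all 18 alternatives, at 0.30 and 0.21 with the length trend removed.

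Of 16 genes for substrate delivery and proteasome-bound enzymes, 1 rose and 5 fell, where 18.9% of all tested genes rose and 19.3% fell. The list's median transcript length was 3000 bases. Among all genes of 2000 to 3000 bases 18.5% rose and 16.9% fell, and of 3000 to 5000 bases 10.7% rose and 26.6% fell. ECPAS, a large scaffold that binds the proteasome, had 64.4, 57.8 and 59.3 CPM under cisplatin, against 83.0, 89.0 and 84.7 CPM under PBS (-0.50 ± 0.08 SE, edgeR adjusted p = 0.00044). The groups did not overlap, and ECPAS stayed called lower in all 18 alternatives, though at -0.21 (edgeR adjusted p = 0.0434) with the length trend removed. The shuttles RAD23B, UBQLN1 and UBQLN2, which carry ubiquitin-bound proteins to the cap, also fell, though UBQLN2 overlapped between groups (edgeR adjusted p = 0.0383). UFD1, which works with the unfoldase VCP, had 74.2 ± 1.17 CPM under cisplatin and 58.7 ± 7.07 CPM under PBS (0.34, edgeR adjusted p = 0.0112) and was not called on TPM or with the length trend removed.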
